A study of Mus musculus with 12 samples.

Results

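Immunoglobulin genes encode the chains of antibodies, and their reads were examined in bulk RNA from mouse brain after a cerebrovascular injury. The set held every gene whose symbol starts with Ighv, Igkv or Iglv, together with 12 named constant-region genes and Jchain, which gave 231 of the 25749 genes in the deposited tables. It comprised 115 heavy, 100 kappa and 3 lambda variable segments, 8 heavy constant regions, 4 light constant regions and Jchain. Members were chosen by gene name, but the set itself was selected on the total exon reads of these genes in both comparisons that involve the antibody treatment, so the members' values in those comparisons are given as a description, with no p-value and with nothing read from their calls. Only the comparison of injured with uninjured mice is reported as a test of the members.

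Brain tissue came from 12 male B6 mice aged 13 weeks, in 3 groups of 4: uninjured mice, injured mice, and injured mice under continuous αLFA1/VLA4, antibodies against the integrins LFA1 and VLA4 with which leukocytes attach to vessel walls. Mice were perfused with saline 20 days after the injury, and a cube of tissue with sides of 3 mm was frozen. The labels describe that cube as injured tissue for all groups, and they state neither how the injury was made nor the dose, route, isotype or host species of the antibodies. The labels name 12 different mice and call the samples biological replicates.

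A B cell assembles 1 heavy-chain and 1 light-chain variable region by recombining gene segments, and joins each to a constant region. The heavy constant region sets the isotype: IgM and IgD (Ighm, Ighd) are made first, and class switching replaces them by IgG (the Ighg genes), IgE (Ighe) or IgA (Igha). Light chains are either kappa (Igkc) or lambda (the Iglc genes), and in mice most are kappa. Plasma cells, the secreting end stage, hold very large amounts of immunoglobulin RNA, and Jchain encodes the joining chain that links IgM and IgA into polymers. A healthy brain holds few B cells, most of them in the meninges and the choroid plexus.

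The antibody-treated libraries stood apart from the others in the kappa light chain, in 4 switched heavy chains, in Jchain and in variable segments led by a single pair. Across the 4 antibody-treated libraries, 2 variable segments took the largest counts: Igkv17-121, a kappa segment, and Ighv1-52, a heavy segment. Their V exons are printed because these segments lead the variable reads and because each has a near-identical relative in the genome to which reads could also map. Each is shown 5′ to 3′, up to its first 300 bases, on the coding strand as annotated in GENCODE M21 on GRCm38, in lower case, beside its closest relative, with capitals at the bases where the pair differs.
Igkv17-121: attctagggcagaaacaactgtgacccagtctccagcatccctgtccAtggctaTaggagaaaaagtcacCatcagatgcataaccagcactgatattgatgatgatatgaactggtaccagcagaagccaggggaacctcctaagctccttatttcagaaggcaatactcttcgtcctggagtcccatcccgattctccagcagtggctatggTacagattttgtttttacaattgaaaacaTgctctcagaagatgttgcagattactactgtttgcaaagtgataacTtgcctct
Igkv17-127: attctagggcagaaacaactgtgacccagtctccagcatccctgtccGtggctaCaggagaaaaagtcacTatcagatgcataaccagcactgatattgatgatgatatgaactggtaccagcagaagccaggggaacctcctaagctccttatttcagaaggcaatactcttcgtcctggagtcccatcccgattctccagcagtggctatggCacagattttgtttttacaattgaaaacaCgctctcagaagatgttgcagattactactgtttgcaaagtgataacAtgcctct
Ighv1-52: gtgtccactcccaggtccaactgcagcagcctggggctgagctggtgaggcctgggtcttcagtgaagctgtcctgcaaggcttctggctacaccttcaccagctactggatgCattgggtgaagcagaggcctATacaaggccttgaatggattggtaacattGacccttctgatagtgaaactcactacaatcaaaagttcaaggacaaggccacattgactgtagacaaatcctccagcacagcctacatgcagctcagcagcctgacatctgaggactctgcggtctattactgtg
Ighv1-61: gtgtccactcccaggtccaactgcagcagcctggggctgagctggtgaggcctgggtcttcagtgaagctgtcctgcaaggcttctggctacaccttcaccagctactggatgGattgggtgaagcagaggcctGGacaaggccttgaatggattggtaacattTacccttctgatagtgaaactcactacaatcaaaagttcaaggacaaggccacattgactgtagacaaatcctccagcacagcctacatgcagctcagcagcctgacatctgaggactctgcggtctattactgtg

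The V exon of Igkv17-121 lies at chr6:68037021-68037318 on the plus strand and that of Igkv17-127 at chr6:67861362-67861659, also on the plus strand. The pair differs at 6 of 298 bases, an identity of 98.0%, and the longest identical stretch is 143 bases. The stretch shown of the V exon of Ighv1-52 lies at chr12:115145492-115145791 on the minus strand and that of Ighv1-61 at chr12:115359145-115359444, also on the minus strand. Over the whole exon this pair differs at 4 of 305 bases, an identity of 98.7%, with an identical stretch of 140 bases. In the antibody-treated libraries Igkv17-127 and Ighv1-61 had 0 reads each, while Igkv17-121 had 216 and Ighv1-52 had 132. Over all libraries, 81.9% of the reads of Igkv17-121 and 68.9% of those of Ighv1-52 were counted by the authors as unique to the gene.

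Libraries held 13330379 to 16121577 exon reads, and the antibody-treated group had the fewest. Markers of neurons, oligodendrocytes, astrocytes, microglia and endothelium were abundant in every library: the 10 genes of that list summed to 9198.9 to 10442 CPM (reads scaled to the effective library size). Immunoglobulin genes are laid out unusually in the deposited tables, since 224 of the 231 members are a single block from the first to the last base of the gene. Annotated exons fill a median of 47.1% of the block for the 8 heavy constant genes and 78.0% for the variable segments, so reads from introns count toward them. Reads across exon junctions were 0 for 11 of the 12 constant genes in all 12 libraries. Iglc2, whose model has 2 exons, had 0 to 2. In bulk RNA, more or fewer cells of a type cannot be told apart from more or less RNA per cell.

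A first look at the whole set shows where the reads lie. All 231 members together had 612, 664, 658 and 581 reads in the uninjured libraries, 562, 702, 681 and 694 in the injured libraries, and 1647, 1611, 1323 and 1860 in the antibody-treated libraries, each in the order of replicates 1 to 4. That is 40.6 ± 2.16, 41.4 ± 3.52 and 117.7 ± 18.1 RPM, reads scaled to all exon reads of a library (mean ± SD, n = 4 libraries each). Most reads of the first 2 groups belonged to Ighm and Ighg2c. Without these 2 genes the sums were 16, 33, 24 and 23 reads in uninjured mice, 32, 24, 34 and 40 in injured mice, and 1099, 1057, 839 and 1248 in antibody-treated mice. The remaining 229 members therefore stood at 1.55 ± 0.436, 2.04 ± 0.403 and 77.6 ± 13.7 RPM (n = 4 each), with every antibody-treated library far above the other 8.

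Of the 231 members, 108 had a read in at least 1 library and 123 had none. The filter on low counts left 10 members for the gene-wise test: Ighm, Ighg1, Ighg2b, Ighg2c, Ighg3, Igha, Igkc, Jchain, Igkv17-121 and Ighv1-52. The other 221 were not tested. The filter keeps a gene that is high in only 1 group, and 8 of the 10 had at most 12 reads in any uninjured or injured library. Between injured and uninjured mice 0 of the 10 was called in either direction by edgeR's quasi-likelihood test at an adjusted p of 0.05, while 11.9% of the 14771 genes tested were called higher and 11.0% lower (23.0% in either direction). No overlap was seen for 0 of the 10, beside 17.4% of all genes on the higher and 12.9% on the lower side. At an unadjusted p under 0.05 the count was 0 as well, and DESeq2's Wald test called 0. Counts were too low to read a missing call for most of the 10. Igkv17-121 and Ighv1-52 had 0 reads in all 8 libraries compared. Ighg2b, Ighg3 and Igha had 0 to 2 in each, and Ighg1 had 0 to 4. Igkc had 5 to 12 and Jchain 2 to 8, so their missing calls are not read either. The test therefore bears on Ighm and Ighg2c, and the count of 0 is not read against the share of all genes. Between antibody-treated and uninjured mice 8 of the 10 were called higher, beside 6.30% of all genes tested, and 0 lower, beside 3.22% (9.53% in either direction). In that comparison 8 of the 10 had no overlap between groups on the higher side, beside 9.01%, and 0 on the lower side, beside 6.56%. Between antibody-treated and injured mice 8 were called higher, beside 10.9%, and 0 lower, beside 10.7% (21.6% in either direction). Here 8 had no overlap on the higher side, beside 10.6%, and 0 on the lower side, beside 11.4%. Both comparisons share the antibody-treated libraries and were in view when the set was chosen, so nothing is read from these counts.

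**Figure D1:**
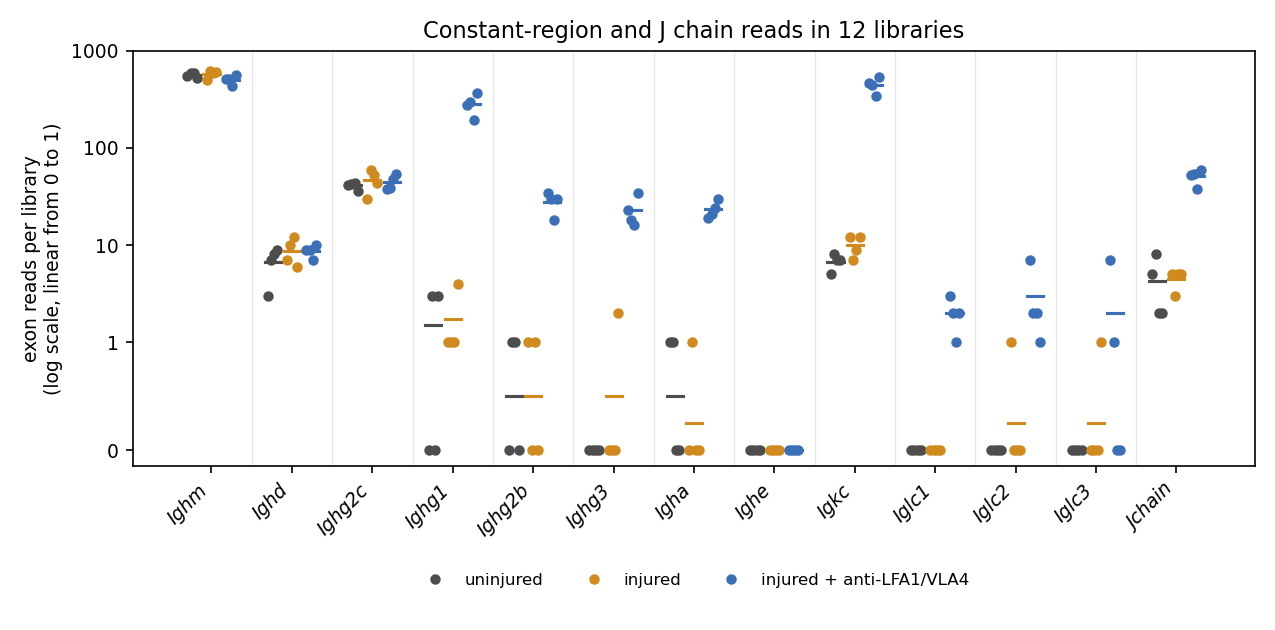
Total exon reads of the constant-region genes and Jchain in each of the 12 libraries, with 1 point per library on a log axis that is linear below 1, coloured by group, and short bars at the group means. Igkc, Ighg1, Ighg2b, Ighg3, Igha and Jchain stand higher in all 4 antibody-treated libraries than in any other, while Ighm, Ighd and Ighg2c overlap between groups.

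Igkc, the only kappa constant region (chr6:70726435-70726966, plus strand), had the most reads of any member but Ighm. It had 5, 8, 7 and 7 reads in uninjured mice, 12, 7, 9 and 12 in injured mice, and 464, 439, 346 and 532 in antibody-treated mice. Uninjured and injured libraries overlapped, and the lowest antibody-treated library held 346 reads against a highest of 12 elsewhere. The ratio of reads, per effective library size, was 71.8 to uninjured mice (95% counting interval 49.2 to 109) and 52.7 to injured mice (38.6 to 74.1). These exact intervals cover counting error only. The fitted log2 fold change was 6.14 (SE 0.20) against uninjured and 5.71 (SE 0.19) against injured mice. From injury alone it was 0.44 (SE 0.35), and the call was not reached (adjusted p = 0.37, edgeR). At 5 to 12 reads per library that missing call is not read.

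Lambda constant regions were rare. Iglc1 had 3, 2, 1 and 2 reads in the antibody-treated libraries, Iglc2 had 7, 2, 2 and 1, and Iglc3 had 7, 1, 0 and 0. Elsewhere the 3 genes together had 2 reads, both in injured mice. Kappa made up 98.5 ± 1.36% of light constant reads in the antibody-treated libraries (n = 4, from 96.5% to 99.4%).

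Among heavy chains, Ighg1 (IgG1; chr12:113325240-113330523, minus strand) had the most reads of the switched isotypes in antibody-treated mice. It had 0, 3, 0 and 3 reads in uninjured mice, 1, 1, 1 and 4 in injured mice, and 278, 296, 196 and 368 in antibody-treated mice. The pooled ratio was 206.5 to uninjured mice (95% counting interval 94.6 to 564) and 192.5 to injured mice (93.1 to 480). The spread between the 4 antibody-treated libraries exceeded counting error: the variance of scaled reads was 22.6 times the mean for Ighg1 and 18.5 times for Igkc. For Ighm it was 8.01 times. Mean scaled reads were 312, 487 and 552 for these genes. The median over the genes of that group was 5.04, but the ratio depends on read depth, so that median is no matched yardstick.

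The other 3 switched isotypes were lower but present in every antibody-treated library. Ighg2b (IgG2b) had 34, 30, 18 and 30 reads there, against 0, 1, 1 and 0 in uninjured and 1, 0, 1 and 0 in injured mice. Ighg3 (IgG3) had 23, 18, 16 and 34 reads, against 0 in all uninjured libraries and 0, 0, 0 and 2 in injured libraries. Igha (IgA) had 19, 21, 24 and 30 reads, against 1, 1, 0 and 0 in uninjured and 0, 1, 0 and 0 in injured mice. None of the 3 overlapped between the antibody-treated libraries and the rest. The ratio to uninjured mice was 61.0 for Ighg2b (16.5 to 510), 51.2 for Igha (13.8 to 429) and at least 33.0-fold for Ighg3, where 0 reads were set to a floor of 3 reads over the group. To injured mice it was 66.3 for Ighg2b (17.9 to 554), 53.9 for Ighg3 (14.5 to 452) and 111.3 for Igha (19.5 to 4443).

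Ighm and Ighg2c did not follow the other isotypes. Ighm (IgM; chr12:113418558-113422730, minus strand) had 554, 588, 590 and 522 reads in uninjured mice, 500, 619, 595 and 610 in injured mice, and 510, 515, 436 and 558 in antibody-treated mice, so that all 3 groups overlapped. Its log2 fold change was -0.08 (SE 0.09) from injury alone, with an adjusted p of 0.541 by edgeR, and -0.03 (SE 0.09) and 0.04 (SE 0.09) for antibody-treated mice against uninjured and injured mice. Ighg2c (the IgG2c of B6 mice) had 42, 43, 44 and 36 reads, 30, 59, 52 and 44 reads, and 38, 39, 48 and 54 reads in the same order of groups. Its log2 fold changes were 0.04 (SE 0.19; adjusted p = 0.889, edgeR), 0.24 (SE 0.19) and 0.20 (SE 0.19). The signs of the Ighm values depend on scaling: with library size alone they were 0.00359 from injury and 0.0196 for antibody-treated against uninjured mice.

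Ighm already made up nearly all heavy constant reads in mice without antibodies, in a background of few light-chain reads. In uninjured libraries Ighm had 522 to 590 reads and Igkc 5 to 8. Annotated exons cover 45.2% of the Ighm block and 36.8% of the Ighg2c block. A separate column of reads in introns held 8 to 20 reads for Ighm across the 12 libraries and 4 to 11 for Ighg1 in the antibody-treated libraries, against 0 for Ighg1 elsewhere. Which transcripts the Ighm reads come from cannot be read from these tables.

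Ighd and Ighe were the remaining heavy constant genes. Ighd (IgD), which is below the filter, had 3, 7, 8 and 9 reads in uninjured mice, 7, 10, 12 and 6 in injured mice, and 9, 9, 7 and 10 in antibody-treated mice. Its ratio of antibody-treated to uninjured mice was 1.41 with a counting interval of 0.830 to 2.43. Ighe had 0 reads in all 12 libraries, which allows up to 3 reads over each group.

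**Figure D2:**
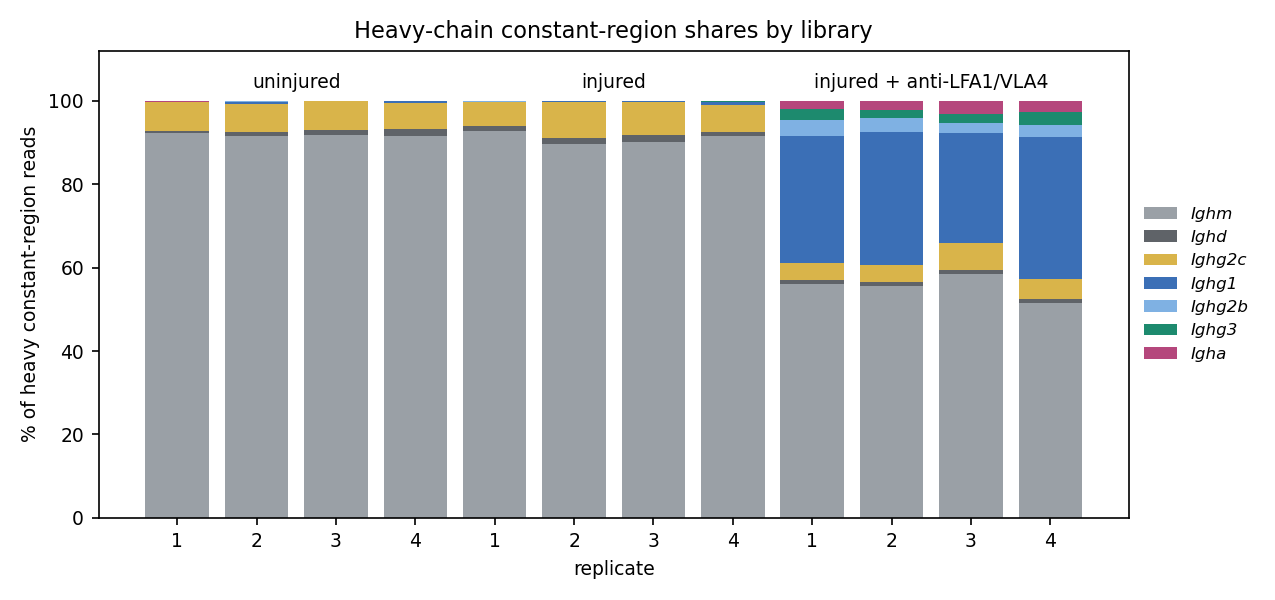
Share of each heavy constant gene among all heavy constant reads, in percent, as 1 stacked bar per library in the 3 groups. Ighm fills 89.7% to 92.8% of every uninjured and injured bar and 51.5% to 58.5% of the antibody-treated bars, where Ighg1 is the next segment.

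As shares of heavy constant reads, Ighm took 91.8 ± 0.391% in uninjured mice, 91.0 ± 1.43% in injured mice and 55.4 ± 2.92% in antibody-treated mice (n = 4 each). The Ighg genes together took 7.04 ± 0.196%, 7.58 ± 1.20% and 41.1 ± 3.07%. Nearly all of the IgG share in the first 2 groups was Ighg2c, at 6.71 ± 0.293% and 7.15 ± 1.33%. In antibody-treated mice Ighg1 alone took 30.7 ± 3.23%, followed by Ighg2c at 4.95 ± 1.06%, Ighg2b at 3.04 ± 0.572%, Igha at 2.58 ± 0.514% and Ighg3 at 2.44 ± 0.525%. Igha and Ighg3 differed by less than the spread between libraries. Among the reads of the 4 switched genes that stood apart, Ighg1 took 79.1 ± 1.67%, Ighg2b 7.85 ± 1.37%, Igha 6.77 ± 1.85% and Ighg3 6.27 ± 1.01%. The part of Ighg1 lay between 77.2% and 81.1% in the 4 mice, while the total of these genes varied from 254 to 462 reads.

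Levels between genes were compared per length, as TPM from the deposited tables, a scale that divides reads by the length of the gene model and so here by the whole block. In uninjured mice Ighm stood first at 21.5 ± 0.395 TPM, ahead of Igkc at 2.02 ± 0.351 and Ighg2c at 1.82 ± 0.102, which did not differ beyond their spread, and Jchain at 0.483 ± 0.316. Injured mice had the same leading genes, with Ighm at 22.8 ± 1.86, Igkc at 3.11 ± 0.871 and Ighg2c at 2.09 ± 0.494 TPM. In antibody-treated mice Igkc stood first at 145.5 ± 20.8 TPM, followed by Ighm at 21.1 ± 1.46, Ighg1 at 9.35 ± 2.08, Jchain at 6.36 ± 0.937 and Ighg2c at 2.17 ± 0.395 (n = 4). Ighg2b stood at 0.977 ± 0.213 TPM. Ighg3 at 0.788 ± 0.261 and Igha at 0.760 ± 0.156 TPM did not differ beyond their spread. The Igkc block is all exon, while exons fill 49.1% of the Ighg1 block, so heavy chain TPM values are lower than they would be over exons alone.

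Jchain (chr5:88519809-88527891, minus strand) has a gene model of 4 exons, so that reads across its junctions were counted separately. It had 5, 8, 2 and 2 exon reads in uninjured mice, 5, 3, 5 and 5 in injured mice, and 53, 54, 38 and 59 in antibody-treated mice. Reads across its exon junctions numbered 2, 1, 0 and 0, then 2, 0, 0 and 3, then 15, 17, 11 and 12. Intron reads numbered 1 to 10 in the uninjured, 1 to 7 in the injured and 1 to 6 in the antibody-treated libraries. Exon and junction reads of the antibody-treated libraries did not overlap with the others, whereas intron reads did. The pooled ratio was 13.1 to uninjured mice (7.96 to 22.9) and 13.4 to injured mice (8.28 to 23.1), and the log2 fold changes were 3.67 (SE 0.30) and 3.71 (SE 0.30). From injury alone the log2 fold change was -0.04 (SE 0.46; adjusted p = 0.96, edgeR). At 2 to 8 reads per library that missing call is not read.

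Variable segments separated the groups by detection. All 218 together had 2, 5, 6 and 2 reads in uninjured mice, 5, 2, 6 and 10 in injured mice, and 202, 185, 191 and 182 in antibody-treated mice. This was 0.242 ± 0.132, 0.360 ± 0.204 and 13.9 ± 0.621 RPM (n = 4 each). A read was seen in 10 segments over the uninjured libraries, in 19 over the injured and in 85 over the antibody-treated ones. In uninjured or injured mice 27 segments had a read. The largest counts there were 5 reads of Igkv10-94 over the uninjured libraries and 3 reads of a segment over the injured libraries.

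**Figure D3:**
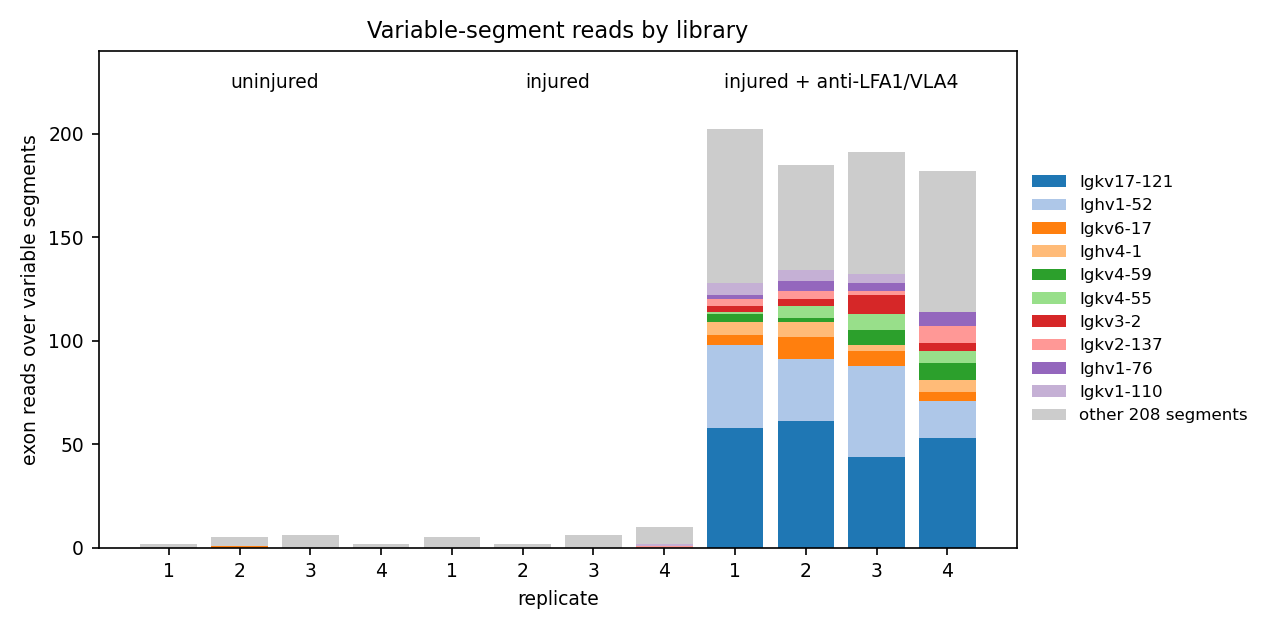
Total exon reads over variable segments as 1 stacked bar per library, by group, with a colour for each of the 10 segments with the most reads and grey for the other 208. The antibody-treated bars reach 182 to 202 reads, with Igkv17-121 (44 to 61) and Ighv1-52 (18 to 44) as the widest named pieces, and the other 8 bars reach at most 10.

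Igkv17-121 had 58, 61, 44 and 53 reads in the antibody-treated libraries and 0 in each of the other 8. Against a floor of 3 reads over the group it was at least 78.4-fold higher than in uninjured and at least 85.3-fold higher than in injured mice. Ighv1-52 had 40, 30, 44 and 18 reads and 0 in each of the other 8, which was at least 47.9-fold and at least 52.1-fold higher. The same 2 segments held ranks 1 and 2 in each of the 4 antibody-treated mice, tied at 44 reads in replicate 3. The next segment in any library had 11 reads.

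Igkv17-121 took 28.5 ± 4.09% of all variable reads and 46.6 ± 3.69% of kappa variable reads (n = 4). Its share of kappa variable reads lay between 43.1% and 50.4%, and its read counts varied about as much as counting alone gives (variance 1.14 times the mean). Ighv1-52 took 17.2 ± 5.63% of all variable reads and 45.5 ± 8.98% of heavy variable reads. Its share of all variable reads was lowest in replicate 4, at 9.89% (95% Wilson interval 6.35% to 15.1%), and highest in replicate 3, at 23.0% (17.6% to 29.5%). The variance of its scaled reads was 4.16 times the mean, at a mean of 35.9 reads. That ratio depends on read depth, so the median of 5.04 over the genes of that group is no matched yardstick.

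On unique reads alone the leading segments took smaller shares. Igkv17-121 took 26.9 ± 3.51% and Ighv1-52 took 13.7 ± 4.85% of variable reads in the antibody-treated libraries. These shares rest on the authors' count of uniquely placed reads, and the mapper that placed them is not given in the sources used here.

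The other segments were many and shallow. Igkv6-17 had 5, 11, 7 and 4 reads in the antibody-treated libraries, Ighv4-1 had 6, 7, 3 and 6, and Igkv4-59 had 4, 2, 7 and 8. Igkv4-55 had 1, 6, 8 and 6 reads, Igkv3-2 had 3, 3, 9 and 4, and Ighv1-76 had 2, 5, 4 and 7. Igkv2-137 had 3, 4, 2 and 8 reads and Igkv1-110 had 6, 5, 4 and 0. Each of these 8 had at most 1 read in the uninjured and at most 1 in the injured group.

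Counted over the antibody-treated mice, 20 segments had a read in all 4 libraries, 13 in 3, 13 in 2 and 39 in 1, while 133 had none. The effective number of segments, an inverse Simpson index that equals the number of segments if all are used alike, was 8.07 ± 1.01 (n = 4, from 6.83 to 9.18). By family, Ighv1 had 228 of the 760 variable reads, and 28 of its 54 segments had a read. Igkv17, which has 2 segments in the tables, had 216 reads, all from Igkv17-121. Igkv4 followed with 66 reads from 8 of its 26 segments and Igkv6 with 38 from 4 of 9. Kappa took 97.0 ± 1.10% of light variable reads, beside 98.5% of light constant reads. Heavy segments took 37.2 ± 6.43% of variable reads.

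Depth limits what lies below these values. A segment with 0 reads in the 4 antibody-treated libraries may have had up to 3 reads among their 54827067 exon reads. Deposited counts do not pair a heavy with a light chain, and they hold no sequence of the joined region, so a shared segment does not show a shared clone.

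Genes of B cells and plasma cells were examined beside the immunoglobulin genes. Of 35 listed genes, 18 passed the filter. Between injured and uninjured mice 2 of the 18 were called higher and 0 lower, beside 11.9% and 11.0% of all genes. Cd22, an inhibitory receptor of B cells and microglia, had 12, 8, 5 and 12 reads in the uninjured libraries, 24, 24, 30 and 25 in the injured ones and 31, 23, 40 and 34 with antibodies. Its log2 fold change from injury was 1.34 (SE 0.27; adjusted p = 0.00625, edgeR). Cd37, a tetraspanin of leukocytes, rose by 0.48 (SE 0.16; adjusted p = 0.0441), a call that was lost under 9 of 16 alternatives (adjusted p from 0.0236 to 0.153 over them). It was lost without any 1 of 7 libraries, that is all but uninjured replicate 3, and with DESeq2's size factors.

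Between antibody-treated and uninjured mice 4 of the 18 were called higher, beside 6.30% of all genes: Cd22 at 1.90 (SE 0.26), Cd37 at 0.59 (SE 0.16), and 2 genes of protein folding in the endoplasmic reticulum, Pdia4 at 0.42 (SE 0.06) and Creld2 at 0.54 (SE 0.12). Their adjusted p by edgeR ranged from 0.000345 to 0.035. The call of Cd37 was again lost under 7 of 16 alternatives (adjusted p from 0.012 to 0.0965), 6 of them a library left out, all but uninjured replicate 3 and antibody-treated replicate 3. Leaving out antibody-treated replicate 3 raised this count to 8, while calls over all genes rose from 931 to 2054 higher and from 476 to 1915 lower. Leaving out uninjured replicate 3 raised it to 7, with 837 higher and 392 lower over all genes. Between antibody-treated and injured mice 2 were called higher, beside 10.9% of all genes: Pdia4 at 0.30 (SE 0.06; adjusted p = 0.00509, edgeR) and Xbp1, a transcription factor of secretory cells, at 0.38 (SE 0.08; adjusted p = 0.00569). Leaving out antibody-treated replicate 3 raised that count to 5, with 1957 genes called higher in place of 1612 over all genes. The median log2 fold change of the 18 was 0.16, against 0.01 for all genes tested. Xbp1 already had 4412 reads over the uninjured libraries.

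The other 13 of the 18 were called in none of the 3 comparisons, at adjusted p of 0.0535 or more (edgeR; the lowest was that of Ell2, an elongation factor, from injury). They include the defining plasma cell genes Prdm1, a transcription factor with 77, 91 and 78 reads over the uninjured, injured and antibody-treated libraries, and Sdc1, the surface proteoglycan CD138, with 120, 115 and 119. Ebf1, a B cell transcription factor that other cells also make, had 305, 327 and 306 reads. Bank1, a B cell adaptor, had 127, 115 and 88, and Tnfrsf13b, the receptor TACI, had 102, 116 and 120. The rest were the secretory genes Derl3, Fkbp11, Txndc5, Sec11c, Ssr4, Edem1 and Herpud1. Their log2 fold changes ran from -0.49 (from injury) to 1.28 (antibody-treated against injured), both values being those of Fkbp11.

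Other B cell and plasma cell genes had few reads and were below the filter. Ms4a1, which encodes CD20, had 0 reads over the uninjured, 4 over the injured and 14 over the antibody-treated libraries, and Cd79a, a signalling chain of the B cell receptor, had 15, 23 and 46. Pou2af1, a coactivator of immunoglobulin transcription, had 6, 8 and 21 reads, and Mzb1, a plasma cell chaperone, had 2, 1 and 9. Cd79b, the partner of Cd79a, had 26, 15 and 23 reads, and Tnfrsf17, the plasma cell survival receptor BCMA, had 19, 17 and 13. The 17 B cell genes summed to 14.1 to 16.2 CPM in uninjured, 15.7 to 19.2 in injured and 19.1 to 23.3 in antibody-treated libraries. The 18 plasma cell genes summed to 361 to 402, 373 to 401 and 389 to 457 CPM. Genes already high in uninjured brain led both sums. These were Xbp1 at 73.5, Sec11c at 61.8, Txndc5 at 56.8 and Herpud1 at 54.6 CPM in the plasma cell list. In the B cell list they were Cd37 at 5.36 and Ebf1 at 5.09 CPM. Neither sum therefore measures the level of B cells or plasma cells.

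Genes of recombination in B cell precursors had few reads. Rag2, needed for recombination, had 0 reads in all groups, and Rag1 had 8, 14 and 13 over the 3 groups. Igll1, part of the surrogate light chain of precursors, had 3, 0 and 0 reads. Cxcl13, a chemokine that draws B cells, had 3, 6 and 49 reads and was below the filter. Its antibody-treated libraries held 17, 13, 12 and 7 reads, and no other library held more than 2. Cxcr4, the receptor that retains plasma cells in bone marrow, was called higher in antibody-treated than in uninjured mice (0.98, SE 0.16; adjusted p = 0.00157, edgeR) and than in injured mice (0.67, SE 0.15; adjusted p = 0.00908).

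Several receptors that bind the constant regions rose with injury itself. Of 10 listed genes 7 passed the filter, and between injured and uninjured mice 4 were called higher and 0 lower, beside 11.9% and 11.0% of all genes. Fcgr4, an activating IgG receptor, rose by 1.67 (SE 0.34; adjusted p = 0.00748, edgeR). Fcgr2b, the inhibitory IgG receptor, rose by 0.69 (SE 0.14), Fcer1g, the shared signalling chain, by 0.50 (SE 0.11), and Fcgr3 by 0.49 (SE 0.08). Adjusted p for these 3 ran from 0.00344 to 0.0103. Between antibody-treated and injured mice 3 were called higher, beside 10.9% of all genes: Fcgr2b at 0.68 (SE 0.13; adjusted p = 0.00345, edgeR), Fcer1g at 0.55 (SE 0.11) and Fcgr3 at 0.27 (SE 0.08). The call of Fcgr3 was lost under 8 of 16 alternatives (adjusted p from 0.0174 to 0.0788), among them without injured replicates 1 or 4 and without antibody-treated replicates 1, 2 or 4. Against uninjured mice 5 were called higher in antibody-treated mice, beside 6.30% of all genes, with the largest log2 fold change for Fcgr4 at 2.29 (SE 0.32). Fcgrt, the neonatal Fc receptor, was not called from injury (0.33, SE 0.13; adjusted p = 0.0685). Pigr, which carries polymeric IgA and IgM across epithelia, had 3, 5 and 1 reads over the 3 groups.

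**Figure D4:**
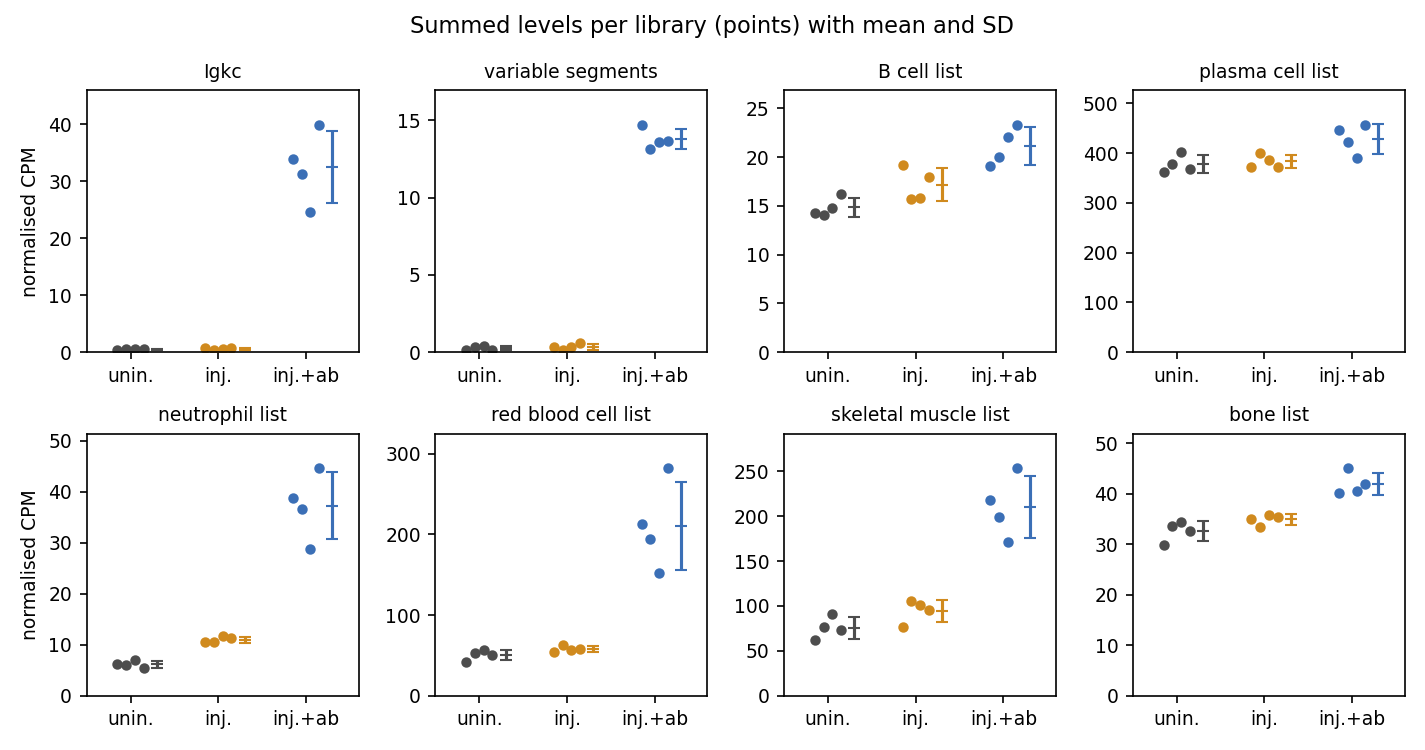
Level in CPM of Igkc, of the summed variable segments and of 6 summed marker lists, in 8 panels with axes from 0, with 1 point per library by group and the mean and SD beside them. Neutrophil, red blood cell, skeletal muscle and bone lists are higher in all 4 antibody-treated libraries than in the other 8. Lcn2 leads the neutrophil sum and Pvalb the skeletal muscle sum in every group. The B cell and plasma cell lists overlap between injured and antibody-treated libraries. For the B cell list the overlap is narrow, with a lowest antibody-treated value of 19.10 and a highest injured value of 19.17 CPM.

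Markers of other tissues moved with the immunoglobulin genes in the antibody-treated mice, and their part in the result was not tested. Of 14 neutrophil genes 6 passed the filter, of which 5 were called higher than in injured mice, a comparison where 10.9% of all genes were. The list summed to 5.37 to 7.05 CPM in uninjured, 10.5 to 11.6 in injured and 28.8 to 44.7 in antibody-treated libraries. Lcn2 led that sum at means of 4.05, 8.14 and 22.8 CPM. From injury 1 of the 6 was called higher, Lcn2, beside 11.9% of all genes. The sum therefore does not measure the level of neutrophils. S100a8 had 22, 32 and 226 reads over the groups. Below the filter, Chil3 had 1, 8 and 44 reads, Retnlg 1, 3 and 30, Camp 3, 15 and 27, and Mmp8 3, 5 and 21. Elane had 0, 2 and 4 reads, Mpo 8, 3 and 4, and Ctsg 0, 0 and 1. Ly6g, a defining neutrophil surface gene, had 0 reads in every group. Of 9 red blood cell genes 6 passed and 5 were called higher, beside the same 10.9% of all genes. That list summed to 41.3 to 56.7, 53.9 to 62.7 and 151 to 282 CPM.

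Skeletal muscle genes stood further apart. Of 12 genes 11 were called higher in antibody-treated than in injured mice, beside 10.9% of all genes. The list summed to 61.9 to 90.7, 76.4 to 105 and 171 to 254 CPM. Pvalb, which interneurons also make, led that sum at means of 61.7, 78.0 and 69.3 CPM. It was the gene of the list not called, so the sum does not measure the level of muscle. Ckm, the muscle creatine kinase, had 3, 1 and 715 reads over the 3 groups. Of 10 bone genes tested 4 were called higher, beside 10.9% of all genes, namely Bglap, Ibsp, Acp5 and Ctsk. The call of Acp5 was lost without injured replicate 4 or antibody-treated replicate 1 (adjusted p from 0.0116 to 0.0843 over 16 alternatives). That list summed to 29.8 to 34.3, 33.4 to 35.8 and 40.1 to 45.04 CPM. Of 12 genes of the meninges 4 were called higher, beside 10.9% of all genes, with the smallest p for Dcn. The sums were 91.2 to 104, 116 to 120 and 166 to 182 CPM. Of 14 genes of T and NK cells 3 passed and 0 was called, beside 21.6% of all genes in either direction. With 3 genes the count of 0 is not read against that share. The list summed to 25.5 to 31.1, 21.8 to 27.8 and 20.9 to 30.1 CPM. Cd4 at 16.5 and Trbc2 at 9.27 CPM led that sum in uninjured mice, so it does not measure the level of T cells.

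Among the antibody-treated libraries, several other genes and lists fell in the order of Igkc and others did not. The order is thus not particular to Igkc. Igkc stood at 33.8, 31.2, 24.7 and 39.9 CPM in replicates 1 to 4. The neutrophil list stood at 38.9, 36.6, 28.8 and 44.7, the red blood cell list at 213, 194, 151 and 282, and the muscle list at 218, 199, 171 and 254 CPM. Replicate 3 was the lowest and replicate 4 the highest in all 4 series. Ighm, which overlapped between groups, had the same order at 37.2, 36.6, 31.1 and 41.9 CPM, as did Pvalb, a muscle gene that interneurons also make, at 983, 909, 705 and 1208 reads. Igha had another order at 1.39, 1.49, 1.71 and 2.25 CPM. The summed variable segments stood at 14.7, 13.2, 13.6 and 13.7 CPM. With 4 mice no correlation is given.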

How the data were processed

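Deposited tables held, for each of 12 libraries, read counts per gene (total and unique exon reads, junction reads, intron reads) and TPM, as the authors computed them, per the file headers. Libraries were made with a stranded total RNA kit, per the labels' protocols. CASAVA 1.8.2, Trimmomatic 0.39, FastQC 0.11.8 and the build GRCm38 are listed in the submitters' processing notes. The mapper, the counting rules and any use of strand were not given in the sources used here. Near-identical segments can share reads.

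Total exon reads of 25749 genes were analysed with edgeR 4.0.16 in R 4.3.3: filterByExpr by group, TMM, quasi-likelihood test over all 12 libraries, Benjamini-Hochberg adjustment over 14771 genes, threshold 0.05. RPM was computed on all exon reads of a library and CPM on the effective library size. Shares carry Wilson and pooled ratios exact 95% intervals. Floors are 3 reads. The scripts were checked on simulated counts.

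The members and gene lists were chosen with earlier results of these data known. Named genes were all constant regions and Jchain, the 10 variable segments with most reads, the 3 leading in each antibody-treated library, from each other list up to 4 genes of smallest p, and B lineage genes with at least 10 reads on average in a group. Further names below the filter (Ms4a1, Cd79b, Tnfrsf17, Mzb1, Pou2af1, Rag1, Rag2, Igll1, Cxcl13, Pigr, Ly6g, Igkv10-94) were chosen after their values were seen. So were the other neutrophil genes below the filter (Chil3, Retnlg, Camp, Mmp8, Elane, Mpo, Ctsg). V exons were taken from GENCODE M21, which held 214 of the 218 segments with at least 2 exons. Alternatives were DESeq2 1.42.0, other scalings and filters, unique reads, a replicate block and leaving out each library; leaving out each library for segment shares was added after seeing the data.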

Additional observations from a re-analysis of the deposited data

How the results depend on the processing

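Of the alternative values for comparisons, 373 stayed close to the reported value and 34 moved. Close meant within a fixed ratio for counts of calls. For RPM, shares and the effective number of segments it meant within the SD between libraries. Of the alternative values for single genes, 1688 kept direction and side of the threshold, 88 lost a call and 19 reversed. With no filter on low counts, 20 of 108 members were called higher in antibody-treated than in uninjured mice and 26 of 108 than in injured mice; these counts describe values that selected the set.

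B lineage genes called higher from injury numbered 1 with DESeq2's size factors, 4 with library size alone and 1 to 2 with a library left out. Those called lower numbered 1 with DESeq2's size factors, with DESeq2's Wald test and with only the 2 compared groups, and 0 to 1 with a library left out. Antibody-treated against uninjured, they numbered 7 higher with no filter, 4 to 8 higher and 0 to 1 lower with a library left out. Antibody-treated against injured, they numbered 4 higher with no filter, 4 on unique reads and 2 to 5 with a library left out. Genes of the other lists called lower in antibody-treated than in uninjured mice numbered 2, and 1 with library size alone, with the replicate block or with only the 2 compared groups, from 1 to 3 with a library left out. Against injured mice they numbered 1 to 2. On unique reads the variable segments stood at 12.5 RPM in antibody-treated mice, and the effective number of segments was 9.43. The cause of these moves was not tested.

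Values that reversed were uncalled in either direction. With library size alone Ighm was 0.00359 and Jchain 0.0428 from injury, and Ighm was 0.0196 in antibody-treated against uninjured mice. With a library left out, log2 fold changes from injury ranged from -0.637 to 0.628 for Ighg1, from -0.567 to 0.355 for Ighg2b, from -0.105 to 0.161 for Ighg2c, from 0 to 2.55 for Ighg3 (0 without injured replicate 4) and from -0.261 to 0.438 for Jchain. Ighm ranged from -0.103 to 0.0308 against uninjured and from -0.0259 to 0.131 against injured mice. With library size alone, 3157 genes were called higher and 995 lower from injury (1764 and 1632 with TMM), and 1267 and 201 in antibody-treated against uninjured mice (931 and 476), as the median over all genes moved from 0.03 to 0.11 (log2, from injury).

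Replicate numbers did not pair the libraries: correlations of same-numbered libraries ran from -0.53 to 0.43 over 12 pairs, 2 of them over 0.1, and 0 of 12 libraries correlated best with its own number. With the replicate block, calls over all genes fell to 1278 higher and 1265 lower from injury, 682 and 213 in antibody-treated against uninjured mice, and 1235 and 1123 against injured mice. With 15 to 23 variable reads per group outside the antibody-treated mice, depth does not allow shares of segments there.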
